A study of Solanum lycopersicum with 6 samples.

Results

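The genes described here are the 3 tomato genes whose deposited description reads only CBF, Solyc03g026270.3, Solyc03g026280.3 and Solyc03g124110.2, out of 35768 genes listed for the series. They were taken by identifier and selected on their levels in mutant against wild type libraries, so that difference is given as a description with no test. RNA of tomato (Solanum lycopersicum) roots was sequenced in 3 samples of the slszp1 mutant and 3 of wild type, which the labels call biological replicates. All plants were 20 days old and all had been treated with 60 µM aluminium (Al) at pH 4.7. SZP1 is a zinc finger protein of the C2H2 class known to bind STOP1, the transcription factor that plants need to tolerate Al and acid soil. The mutant allele, the number of independent lines and the hour of harvest are not given in the sources used here, and no description names SZP1, so the genotype labels were not checked against the targeted gene. Roots without Al were not analysed here. Each difference below is therefore between genotypes under Al and is not a response to Al.

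CBF proteins (C-repeat binding factors, also called DREB1) are transcription factors of the AP2/ERF family. They bind the C-repeat, or dehydration-responsive element, in the promoters of cold-regulated genes. In Arabidopsis their transcripts are nearly absent at rest and accumulate quickly in the cold, and the circadian clock sets how strongly they respond at a given time of day. DREB proteins of other subgroups bind the same element and are better known for drought, salt and heat responses.

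The deposited values are taken as TPM, a transcript abundance per gene length that is scaled to a fixed total per library. The 6 columns summed to between 940694.5 and 974316.37, and the absolute sequencing depth is unknown. Where 3 values are given for a genotype, they stand in the order of replicates 1, 2 and 3. Between 17050 and 17728 genes reached 1 TPM in each library. Across the tested genes, which are no independent replicates, Pearson r was 0.971 to 0.980 among mutant libraries, 0.952 to 0.974 among wild type libraries and 0.877 to 0.916 between genotypes. Genes described as photosystem, chlorophyll-binding or Rubisco proteins, a list for green tissue, summed to 731.7 to 783.2 TPM across the mutant libraries, against 579.6 to 614.9 TPM across wild type libraries, with 156 to 163 of 231 listed genes at 0. The list for root genes (nitrate transporters, Casparian strip, root cap, root hair and root meristem) overlapped between genotypes, at 402.1 to 461.3 TPM across the mutant libraries, against 404.8 to 477.4 TPM across wild type libraries, with 13 to 16 of 38 genes at 0. Of 40 tested green tissue genes 4 rose and 2 fell by limma, a linear model fitted over all tested genes with Benjamini-Hochberg adjustment, at an adjusted p under 0.05, which is 15% called against 19.2% of all tested genes. The summed level of that list thus moved with genotype, and its part in the CBF levels was not tested.

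All 3 CBF genes were higher in the mutant, and the mutant and wild type libraries did not overlap in any of them. Over all tested genes, 18.2% had every mutant library above every wild type library. Because the genes were chosen with this contrast known, nothing is read from their count against that share. The mean difference over the 3 genes was 4.56 on the log2(TPM + 1) scale.

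Solyc03g026280.3 was the most abundant CBF gene in every library. It held 154.21, 175.51 and 130.1 TPM across mutant replicates 1, 2 and 3, against 1.27, 7.94 and 1.44 TPM across wild type replicates 1, 2 and 3. The mutant libraries lay close together, while wild type replicate 2 stood well above the other wild type libraries. The group levels were 153 ± 22.7 TPM across the mutant libraries, against 3.55 ± 3.80 TPM across wild type libraries (mean ± SD, n = 3 each), a 43.2-fold ratio of means and a difference of 5.38 on the log2(TPM + 1) scale. That difference was 6.02 without wild type replicate 2. Ranked by level, the gene was at place 1020 to 1355 of all listed genes in the mutant libraries and at place 10909 to 17014 in the wild type libraries.

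Solyc03g124110.2 was close to absent in wild type. It held 86.48, 88.07 and 57.07 TPM across mutant replicates 1 to 3, against 0.51, 0.91 and 0 TPM across wild type replicates 1 to 3. Mutant replicate 3 was the lowest of the mutant libraries, and wild type replicate 3 listed the gene at 0. The group levels were 77.2 ± 17.5 TPM and 0.473 ± 0.456 TPM (mean ± SD, n = 3 each), a difference of 5.75 on the log2(TPM + 1) scale. The ratio of means was 163, but with a denominator this near 0 it depends on single low values. With 0.1 added in place of 1 the difference was 7.59.

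Solyc03g026270.3, the neighbour of Solyc03g026280.3, was the least abundant CBF gene in the mutant. It held 11.62, 9.5 and 6.64 TPM across mutant replicates 1 to 3, against 0.51, 0.96 and 0.69 TPM across wild type replicates 1 to 3. Each mutant library held several times the level of any wild type library. The group levels were 9.25 ± 2.50 TPM and 0.72 ± 0.227 TPM (mean ± SD, n = 3 each), a 12.9-fold ratio of means and a difference of 2.55 on the log2(TPM + 1) scale. With 0.1 added in place of 1 the difference was 3.51. Ordered by difference over 17702 tested genes, Solyc03g124110.2 came at place 7, Solyc03g026280.3 at place 8 and Solyc03g026270.3 at place 150. The genes were chosen on this contrast, so nothing is read from these places. Of them, 2 (Solyc03g124110.2 and Solyc03g026270.3) were among the tested genes through their mutant levels alone.

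**Figure D1:**
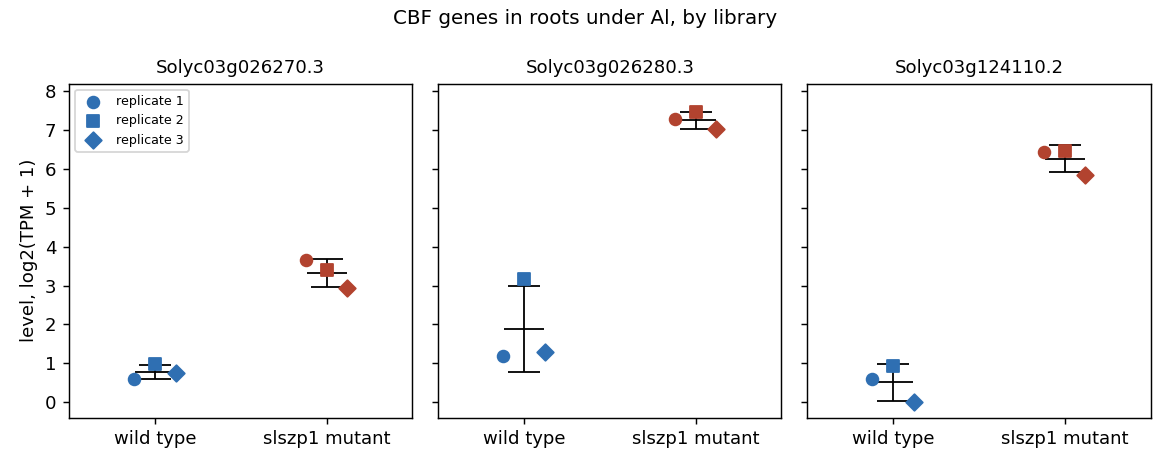
Level of each CBF gene, as log2(TPM + 1), in the 3 wild type (blue) and 3 slszp1 mutant (red) libraries, with symbols for replicates and black bars for the mean ± SD. All mutant libraries lie above all wild type libraries in each gene, and wild type replicate 2 is the highest wild type library in each.

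The order of the CBF genes was the same in every mutant library, with Solyc03g026280.3 above Solyc03g124110.2 above Solyc03g026270.3. The mutant ranges of the 3 genes did not overlap one another. Solyc03g026280.3 made up 61.1% to 67.1% of their summed TPM in the mutant libraries, Solyc03g124110.2 29.4% to 34.3% and Solyc03g026270.3 3.43% to 4.61%. In wild type the sum was 2.29, 9.81 and 2.13 TPM in replicates 1 to 3, against 252.3, 273.1 and 193.8 TPM in the mutant. Solyc03g026280.3 again led in wild type, with 55.5% to 80.9% of the sum, but the ranges of the other CBF genes overlapped there, so their order in wild type was not resolved. The ratio of Solyc03g026280.3 to Solyc03g026270.3 was 13.3 to 19.6 in the mutant and 2.09 to 8.27 in wild type, without overlap. The wild type ratios divide by levels near 0 (0.51, 0.96 and 0.69 TPM for Solyc03g026270.3), so nothing is read from the lack of overlap. Both genes are adjoining copies of one family, and the sources used here do not say how reads were divided between similar copies, so the ratio is uncertain in the mutant as well.

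Within each genotype the CBF genes also varied among libraries. All 3 were highest in wild type replicate 2 among the wild type libraries, which held the highest wild type value for 33.6% of all tested genes. All 3 were lowest in mutant replicate 3 among the mutant libraries. That library held the highest mutant value for 56.5% of all tested genes, and the share of genes lowest there is not given here. The coefficient of variation over the mutant libraries was 14.8% for Solyc03g026280.3, 22.6% for Solyc03g124110.2 and 27% for the less abundant Solyc03g026270.3. For the first and second of these, the 2552 tested genes with a mutant mean of 50 to 200 TPM give the comparison, with a median of 11.3% and quartiles of 7% and 17.9%. Pairwise Pearson r of the CBF genes over the 6 libraries was 0.978 to 0.990 on the log2(TPM + 1) scale, and all 3 genes share the gap between genotypes in these points.

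The genes listed beside the CBF genes on chromosome 3 did not pass the test. Neighbours were the 3 listed identifiers on each side of each CBF gene, ordered by identifier number, which follows the chromosome; Solyc03g124110.2 is the last chromosome 3 identifier in the table and had neighbours on one side only. Of these 9 genes, 4 stayed under the expression minimum (1 TPM in at least 3 libraries). Of the other 5, 0 passed limma at an adjusted p under 0.05, and 0 had an unadjusted p under 0.05. Of all 17702 tested genes 19.2% passed, and 2688 rose and 3070 fell at an unadjusted p under 0.05. With only 5 genes tested, little can be read from counts of 0. Solyc03g026250.2, a two-component response regulator gene, held 15.5 ± 4.20 TPM across the mutant libraries, against 15.6 ± 2.18 TPM across wild type libraries (limma adjusted p = 0.928). On the other side of the pair, Solyc03g026290.3, described as a post-GPI attachment-like factor, held 11.5 ± 0.918 and 11.7 ± 1.22 TPM (limma adjusted p = 0.940). Solyc03g026300.3, described likewise, held 21.7 ± 4.28 and 23.7 ± 4.08 TPM (limma adjusted p = 0.704). Next to Solyc03g124110.2, the lipid transfer protein gene Solyc03g124060.3 held 22.2 ± 2.61 and 19.95 ± 0.956 TPM and the mitochondrial transcription termination factor gene Solyc03g124040.3 held 13.2 ± 1.64 and 11.2 ± 1.12 TPM (limma adjusted p = 0.560 and 0.432). Each of these values is a mean ± SD over 3 libraries.

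**Figure D2:**
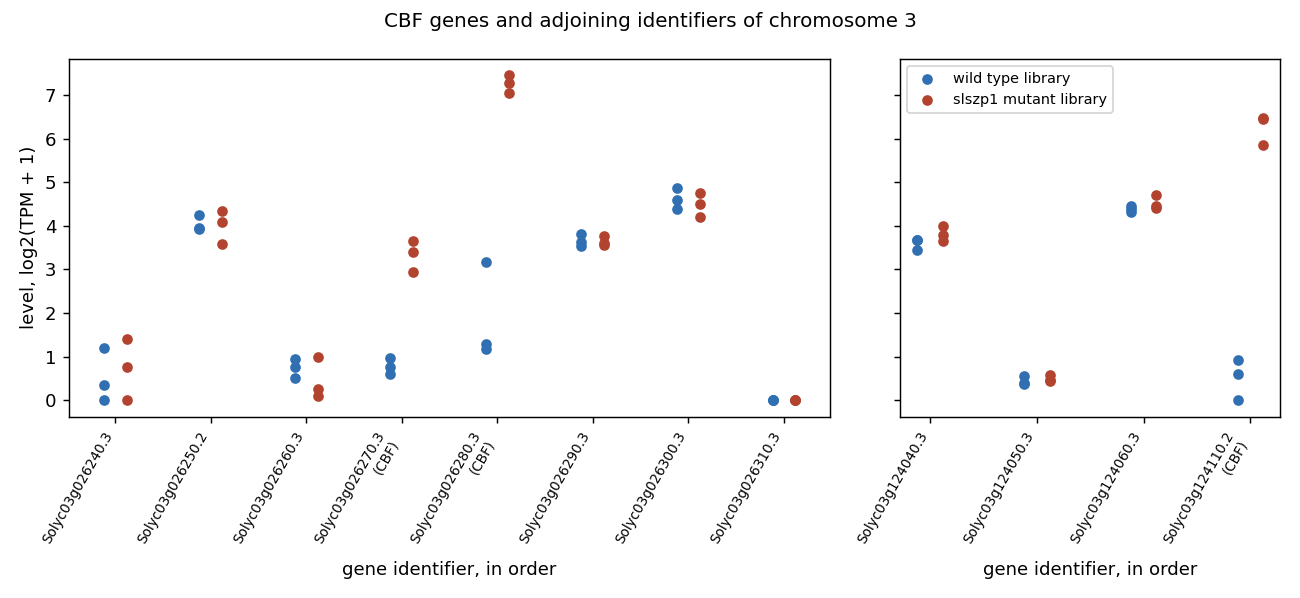
Level, as log2(TPM + 1), of the CBF genes and of the identifiers listed beside them on chromosome 3, in wild type (blue) and slszp1 mutant (red) libraries. The genotypes overlap in all 9 neighbours and are apart in the 3 CBF genes, which were chosen on this contrast. Of all 17702 tested genes, 3229 had every mutant library above every wild type library and 3580 had every mutant library below.

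Several other genes described as CBF or DREB factors were higher in the mutant too. The table holds 20 of these besides the 3 CBF genes. Of these, 6 were listed at 0 in every library and 7 stayed below the expression minimum, at no more than 2.58 TPM in any library. Of the 7 tested, 5 rose and 0 fell by limma at an adjusted p under 0.05, with the same counts at an unadjusted p under 0.05. Of all tested genes, 19.2% were called (8.71% rose and 10.5% fell). At an unadjusted p under 0.05, 2688 of all 17702 tested genes rose and 3070 fell. The count is not support by itself, because 3 of the 5 reached the minimum through the mutant libraries alone and so could only be higher in the mutant. With the minimum set at 1 TPM in at least 4 libraries, which neither genotype can reach alone, 2 of 4 rose and 0 fell by limma (also 2 and 0 unadjusted), against 8.12% of all genes rising. With no minimum, 5 of 14 rose and 0 fell by limma (6 and 0 unadjusted), against 5.40% of all genes rising, and the median difference of the 14 was 0.18 against −0.01 for all 25148 genes.

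The adjoining identifiers Solyc08g007820.1 and Solyc08g007830.1, both described as C-repeat binding factors, rose from near 0. Solyc08g007820.1 held 4.33, 5.24 and 3.64 TPM across mutant replicates 1 to 3, against 0.26, 0.31 and 0 TPM across wild type replicates 1 to 3 (limma adjusted p = 0.000448). Solyc08g007830.1 held 5.15, 6.25 and 3.52 TPM in the mutant and 0 in every wild type library (limma adjusted p = 0.000263). Neither overlapped between genotypes, and both peaked in mutant replicate 2, as Solyc03g026280.3 and Solyc03g124110.2 did. Both reached the expression minimum through the mutant alone and so could only be higher there. Nothing is read from their p or from the lack of overlap. The next identifier, Solyc08g007840.2, described as a dehydration-responsive element binding factor, was not tested, and held 0.52, 0.14 and 0.18 TPM across the mutant libraries, against 0.79, 0.31 and 0.31 TPM across wild type libraries.

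Among genes described as dehydration responsive element binding factors, Solyc06g035700.1 held 13.76, 13.09 and 8.41 TPM in the mutant and 0 in every wild type library (limma adjusted p = 4.28e-05). The other DREB genes that rose were already expressed in wild type. Solyc05g052410.2 held 56.36, 56.19 and 43.22 TPM across mutant replicates 1 to 3, against 11.83, 22.22 and 14.11 TPM across wild type replicates 1 to 3. Its change was 1.67 on the log2(TPM + 1) scale (SE 0.23, limma adjusted p = 0.00183), and wild type replicate 2 was again the highest wild type library. Solyc04g072900.1, described as dehydration-responsive element binding protein 3, held 142.73, 163.02 and 151.16 TPM across the mutant libraries, against 92.63, 85.9 and 82.68 TPM across wild type libraries. Its change was 0.80 (SE 0.14, limma adjusted p = 0.00469), the smallest of the 5. Solyc05g052410.2 and Solyc04g072900.1 were called under every alternative, except that Solyc04g072900.1 changed by less than 2-fold. The other 3 genes that rose, Solyc06g035700.1 among them, reached the minimum through the mutant alone. Nothing is read from their p or from how often they were called.

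The remaining tested DREB genes did not pass. Solyc08g080290.3 held 12.29, 14.97 and 14.7 TPM across the mutant libraries, against 8.32, 19.55 and 7.01 TPM across wild type libraries (limma adjusted p = 0.493). It was called higher only without wild type replicate 2 (0.79 on the log2(TPM + 1) scale, limma adjusted p = 0.0221). Solyc10g076370.2 held 3.44, 1.97 and 3.54 TPM across the mutant libraries, against 3.16, 11.04 and 5.25 TPM across wild type libraries, where wild type replicate 2 again stood highest. Summed over the 23 CBF and DREB genes, the libraries held 492, 535.6 and 424.9 TPM across mutant replicates 1 to 3, against 120.2, 150.1 and 112.8 TPM across wild type replicates 1 to 3. The 3 CBF genes made up 45.6% to 51.3% of that sum in the mutant and 1.89% to 6.54% in wild type. They were chosen on this contrast, so nothing is read from the gap in the sum or from their share.

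**Figure D3:**
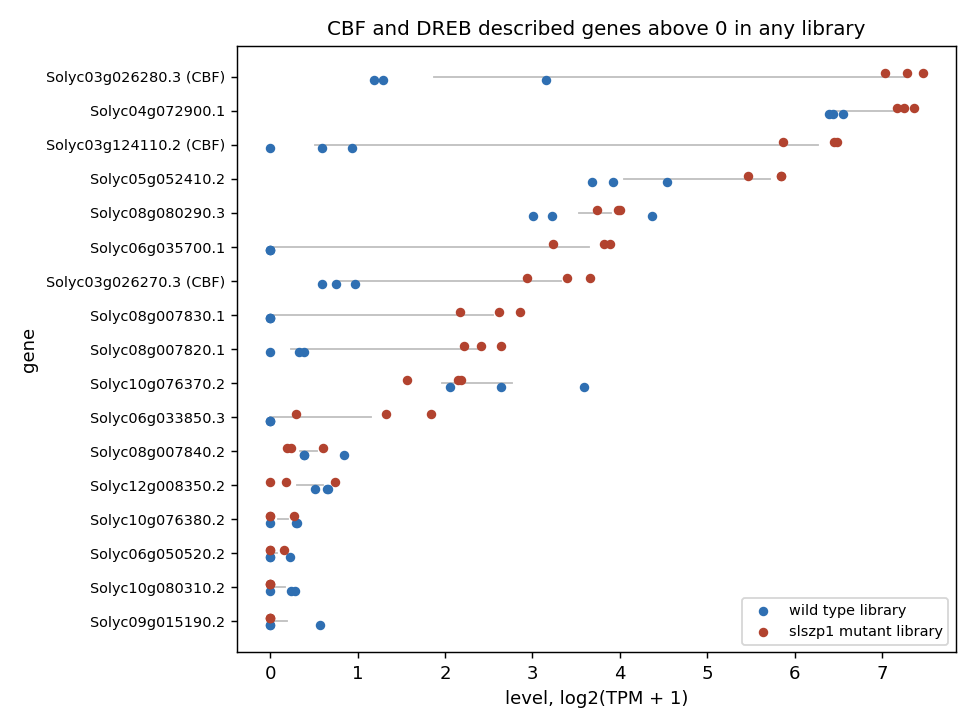
Level, as log2(TPM + 1), of the 3 CBF genes and the 14 other CBF and DREB described genes above 0 in any library, with wild type libraries in blue, slszp1 mutant libraries in red and a grey line joining the group means. Beside the CBF genes, 5 genes rose by limma, of which 3 were tested through their mutant levels alone and so could only be higher in the mutant. Solyc08g007830.1 and Solyc06g035700.1 are listed at 0 in all wild type libraries.

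Genes that act upstream of CBF genes in Arabidopsis differed little. The list held calmodulin-binding transcription activators (CAMTA), which raise CBF transcription in the cold, HOS1, a ubiquitin ligase that limits it, phytochromes and phytochrome-interacting factors, which tie it to light, and EIN3 proteins, ethylene factors that repress it. Of 19 tested members 0 rose and 1 fell by limma, 5.26% called against 19.2% of all tested genes. Unadjusted p fell under 0.05 for 2 that rose and 1 that fell, against 2688 and 3070 of all 17702 tested genes. The median difference was 0.13 on the log2(TPM + 1) scale against −0.0005 for all tested genes. The member that fell was the CAMTA gene Solyc12g099340.2, with 9.94, 11.62 and 13.36 TPM across mutant replicates 1 to 3, against 19.16, 19.1 and 22.22 TPM across wild type replicates 1 to 3. Its change was -0.75 (SE 0.17, limma adjusted p = 0.0157), and it no longer passed without mutant replicate 1, mutant replicate 2 or wild type replicate 3 (over its alternatives the limma adjusted p was 0.00738 to 0.0644). The other 5 tested CAMTA genes did not pass, with differences from -0.04 to 0.83. The HOS1 gene Solyc08g078320.3 held 5.42 ± 0.731 TPM across the mutant libraries, against 4.79 ± 0.588 TPM across wild type libraries (mean ± SD, n = 3, limma adjusted p = 0.637). Phytochrome A, Solyc10g044670.2, held 47.4 ± 9.61 against 31.9 ± 3.57 TPM (limma adjusted p = 0.0631), and it was called higher with quantile normalization, with median centring and with the replicate number as a block (limma adjusted p = 0.0406, 0.0294 and 0.0428). Both these genes were picked after their values were seen. The list's patterns for ICE1, for OST1 or SnRK2 kinases and for MYB15, all further regulators of CBF genes, matched 0 descriptions, so these were not followed.

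Genes named for cold or dehydration, a list by description that includes kinds of gene CBF factors are known to act on, changed in both directions. Of its tested members, 29 were described as late embryogenesis abundant hydroxyproline-rich glycoproteins. Of 73 tested members 11 rose and 12 fell by limma, 31.5% called against 19.2% of all tested genes, and the median difference was -0.06 on the log2(TPM + 1) scale. Among the 13 tested genes named for cold or low temperature, 4 rose and 0 fell by limma, against 8.71% and 10.5% of all tested genes. The counts were 5 and 1 at an unadjusted p under 0.05, against 2688 and 3070 of all 17702 tested genes. The WCOR413-like cold acclimation gene Solyc01g109170.3, of a family of membrane proteins that accumulate in the cold in cereals, held 270.12, 278.02 and 286.09 TPM across mutant replicates 1 to 3, against 93.99, 115.52 and 98.73 TPM across wild type replicates 1 to 3. The groups were far apart, with a change of 1.43 (SE 0.14, limma adjusted p = 0.000405). The other tested genes described as cold acclimation proteins had lower mutant means and did not pass. Solyc02g071210.3, also described as WCOR413, held a mean of 1.33 against 1.76 TPM and Solyc02g065380.3 of 77.7 against 94.7 TPM (limma adjusted p = 0.453 and 0.254). Solyc03g026000.3, described as cold regulated protein 27, a regulator of cold and light responses in Arabidopsis, held 17.14, 13.62 and 23.4 TPM across the mutant libraries, against 1.26, 4.1 and 0.77 TPM across wild type libraries. Its change was 2.77 (SE 0.40, limma adjusted p = 0.00262), and its highest wild type value was again in replicate 2. The other 3 tested genes of that description did not pass.

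Dehydrins, hydrophilic proteins that protect cells as water is lost and that include cold-induced members, were lower in the mutant where they were called. Of 6 tested dehydrins 0 rose and 3 fell by limma, against 8.71% and 10.5% of all tested genes, and 2 of those 3 are models marked low quality. The counts at an unadjusted p under 0.05 were 1 and 3, against 2688 and 3070 of all 17702 tested genes. Solyc02g062390.3 held 8.13, 5.69 and 8.57 TPM across mutant replicates 1 to 3, against 59.99, 57.45 and 82.71 TPM across wild type replicates 1 to 3, and changed by -3.0 (SE 0.21, limma adjusted p = 6.05e-05). The low-quality model Solyc03g044850.1 held 314.41, 319.73 and 165.11 TPM against 1542.37, 745.43 and 1362.92 TPM (limma adjusted p = 0.00459). In both genes every mutant library lay below every wild type library.

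Genes described as late embryogenesis abundant (LEA), a name for proteins that accumulate in drying seeds and stressed tissue, held calls in both directions. Whether each gene so described makes such a protein was not checked. Of the 19 tested LEA genes not described as hydroxyproline-rich, 3 rose and 4 fell by limma, and of the 29 described so, 3 rose and 5 fell, against 8.71% rising and 10.5% falling among all tested genes. The highest level was that of Lea5 (Solyc09g075210.3), at 3638 ± 659.8 TPM across the mutant libraries, against 1010 ± 174.6 TPM across wild type libraries (mean ± SD, n = 3), a change of 1.85 (SE 0.21, limma adjusted p = 0.000741). Solyc12g098900.2 and Solyc03g120710.2 also rose, with 6.59 ± 1.68 against 0.90 ± 0.421 TPM and 109 ± 32.7 against 32.8 ± 3.88 TPM (limma adjusted p = 0.00123 and 0.00151). In the other direction Solyc06g067980.3 held 1.06, 0.13 and 0.16 TPM across the mutant libraries, against 34.92, 8.82 and 49.25 TPM across wild type libraries (limma adjusted p = 0.00472). Solyc10g005040.3, described as hydroxyproline-rich, fell from 20.7 ± 4.21 to 4.68 ± 2.40 TPM and Solyc03g116390.3 from 16.1 ± 9.84 to 2.03 ± 1.01 TPM (limma adjusted p = 0.00250 and 0.00518). In bulk roots, a lower share of cells that express a gene and less of its RNA per cell cannot be told apart, and this holds for the CBF genes as well. Genes described as galactinol, raffinose or stachyose synthases, enzymes of sugars that build up in the cold, numbered 4, and 0 reached the expression minimum.

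**Figure D4:**
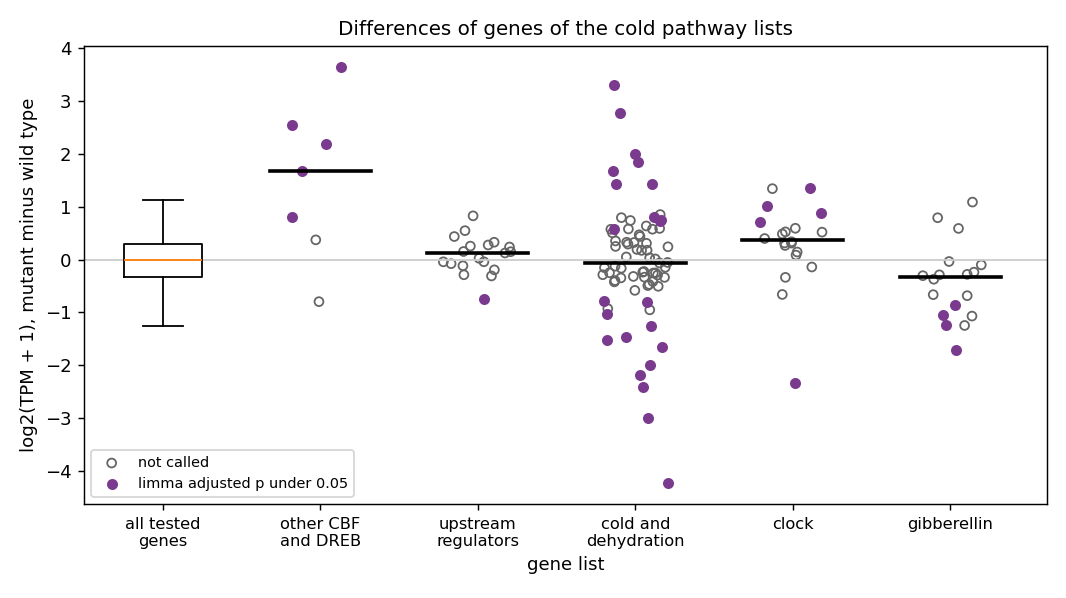
Difference of log2(TPM + 1), mutant minus wild type, for each tested gene of 5 lists, with filled points for a limma adjusted p under 0.05, open points for the rest and black bars for list medians. The box gives the quartiles and the whiskers the 5th and 95th percentiles of all 17702 tested genes; the cold and dehydration list holds calls on both sides of 0, with 11 above and 12 below, and 3 of the other CBF and DREB genes were tested through their mutant levels alone.

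Clock genes were examined because the clock gates CBF transcription in Arabidopsis. Of 20 tested members 4 rose and 1 fell by limma, 25% called against 19.2% of all tested genes, with a median difference of 0.37 on the log2(TPM + 1) scale. A flavin-binding kelch F-box gene (Solyc01g005300.3), of a family that times protein breakdown by light, held 72.58, 88.93 and 102.03 TPM across mutant replicates 1 to 3, against 42.21, 39.43 and 47.21 TPM across wild type replicates 1 to 3. Its change was 1.006 (SE 0.17, limma adjusted p = 0.00398), with no overlap. A TOC1 gene (Solyc06g069690.3), whose Arabidopsis counterpart is an evening repressor, held 11.5 ± 1.62 against 4.08 ± 1.86 TPM and ELF4-like 4 (Solyc07g041340.2) 14.7 ± 1.03 against 7.57 ± 1.54 TPM (limma adjusted p = 0.00902 and 0.0120). The TOC1 genes Solyc03g115770.3 and Solyc06g069693.1 did not pass, with differences of -0.14 and 0.27 (limma adjusted p = 0.743 and 0.572). Of the 2 tested genes described as GIGANTEA, a clock and flowering regulator, Solyc12g056650.2 did not pass, with a difference of 0.52 (limma adjusted p = 0.216). The other, Solyc04g071990.3, held 80.2 ± 18.6 against 48.0 ± 8.32 TPM (limma adjusted p = 0.0372, and 0.0183 to 0.124 over its alternatives). Its call was lost with no expression minimum and without any single library other than wild type replicate 3. An early flowering 4 gene, Solyc06g051660.1, was listed at 0 in every mutant library and held 5.72, 5.8 and 1.81 TPM in wild type (limma adjusted p = 0.00247). Another early flowering 4 gene, Solyc06g051680.1, lay in the other direction and did not pass. It held 5.18, 13 and 7.23 TPM across the mutant libraries, against 3.88, 4.91 and 0.52 TPM across wild type libraries (limma adjusted p = 0.147). Solyc06g051660.1 reached the expression minimum through wild type alone and so could only be lower in the mutant. With 1 TPM in at least 4 libraries 4 of 18 clock genes passed limma, each of them higher in the mutant, against 8.12% of all genes rising. The late elongated hypocotyl gene Solyc10g005080.3, a morning factor that activates CBF genes in Arabidopsis, was picked after its values were seen and did not pass, with a difference of -0.66. It also reached the minimum through wild type alone. The other 15 of the 20 clock genes, this one among them, were not called, and the part of the called ones in the CBF levels was not tested.

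Gibberellin genes were examined because CBF overexpression lowers active gibberellin in Arabidopsis through gibberellin 2-oxidases. Of 18 tested members 0 rose and 4 fell by limma, 22.2% called against 19.2% of all tested genes, with a median difference of -0.34 on the log2(TPM + 1) scale. Without adjustment, 1 rose and 7 fell at p under 0.05 by limma, against 2688 and 3070 of all 17702 tested genes. The 3 tested gibberellin oxidases were all described as gibberellin 2-oxidases, which inactivate the hormone, and no gibberellin 20-oxidase reached the expression minimum. These 3 did not pass limma (1 rose and 0 fell at an unadjusted p under 0.05), with differences from -0.28 to 0.79. Of 8 tested genes described as GID1, the gibberellin receptor, 0 rose and 2 fell by limma, against 8.71% and 10.5% of all tested genes. Solyc10g054780.2 held 5.68, 6.3 and 5.53 TPM across mutant replicates 1 to 3, against 14.07, 14.19 and 17.25 TPM across wild type replicates 1 to 3 (limma adjusted p = 0.00158). Solyc07g042847.1 held 1.37 ± 0.413 against 3.23 ± 0.0781 TPM (limma adjusted p = 0.0254, and 0.0171 to 0.0924 over its alternatives). Differences over the 8 GID1 genes ran from -1.24 to -0.04. The most abundant of them, Solyc06g008870.2, held 250.9 ± 4.35 against 259.6 ± 42.7 TPM and did not pass (limma adjusted p = 0.903). A gibberellin-regulated protein gene (Solyc08g005620.3) fell to 3.14 ± 1.15 from 12.1 ± 0.366 TPM (limma adjusted p = 0.00146), and another (Solyc11g011210.2) held 3.6, 3.89 and 4.72 TPM against 10.1, 14.03 and 5.86 TPM (limma adjusted p = 0.0347, and 0.00906 to 0.103 over its alternatives). The calls of Solyc07g042847.1 and Solyc11g011210.2 were lost with the replicate number as a block. They were also lost without mutant replicate 1, mutant replicate 2 or wild type replicate 1, the first also without wild type replicate 3 and the second without mutant replicate 3 or wild type replicate 2, or with no expression minimum.

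The genes whose pattern over the 6 libraries was most like that of the CBF genes were sought among 10026 genes with a mean of 10 TPM or more, by the mean Pearson r with the 3 CBF genes on the log2(TPM + 1) scale. Of these, 271 had a mean r above 0.95. The points share the gap between the genotypes, and no p is given. The 5 highest, at 0.992 to 0.993, were 3 low-quality models, a U-box gene and a gene of the disease resistance family. The U-box gene (Solyc01g007040.3), of a family of ubiquitin ligases, held 85.71, 87.64 and 62.6 TPM across mutant replicates 1 to 3, against 3.94, 7.35 and 5.29 TPM across wild type replicates 1 to 3. As in all 3 CBF genes, mutant replicate 3 was the lowest mutant library and wild type replicate 2 the highest wild type library. The U-box gene was sought by its likeness over these libraries, so nothing is read from this. The NBS-LRR gene Solyc02g084890.2 held 16.7 ± 1.84 against 4.26 ± 0.786 TPM. The low-quality models were Solyc04g074830.1, with an ENTH/ANTH/VHS description (192.5 ± 14.5 against 63.2 ± 7.78 TPM), Solyc04g071480.1 (167 ± 14.7 against 17.8 ± 3.51 TPM) and the phloem specific protein model Solyc03g112210.1 (27.2 ± 5.02 against 1.54 ± 0.484 TPM). Among the other CBF and DREB genes above 0, the 5 that rose had a mean r of 0.964 to 0.987 with the CBF genes, and the other 9 had 0.727 or less. The calls and this r rest on the same gap between genotypes, so nothing is read from that split.

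**Figure D5:**
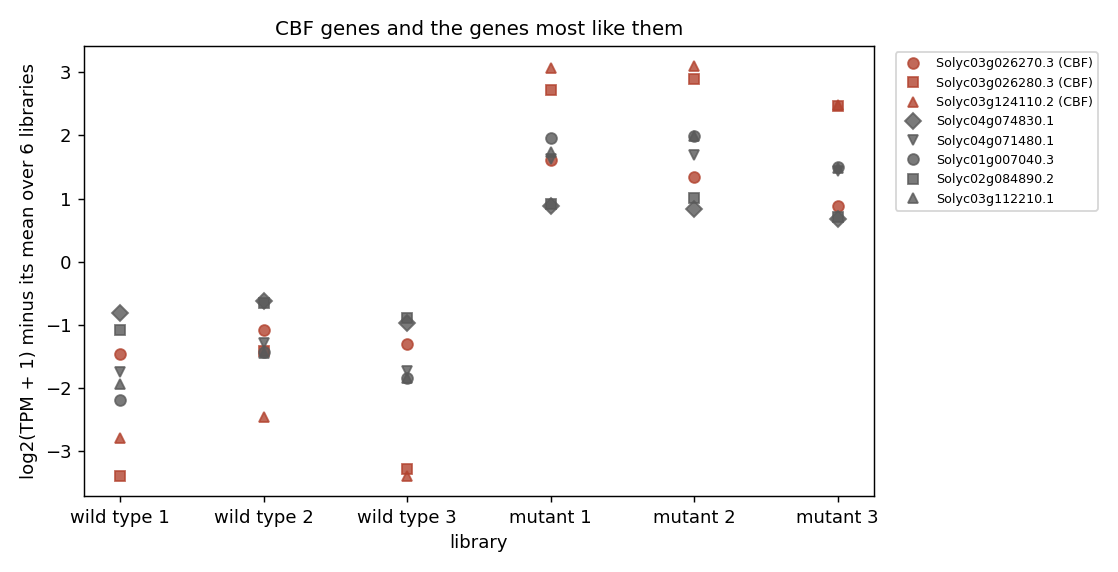
Level of the 3 CBF genes (red) and of the 5 genes with the most similar pattern (grey) in each library, as log2(TPM + 1) minus the gene's mean over the 6 libraries. All 8 genes lie above their mean in the mutant libraries and below it in the wild type libraries.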

How the data were processed

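Root RNA of 3 slszp1 mutant and 3 wild type samples was sequenced. The authors deposited 1 table with 6 value columns, all used; its header names no unit, and the deposited values were taken as TPM from their sums and decimals. Per the submitters' processing notes the tools were HISAT2, TopHat2, Cufflinks and StringTie, with no roles or versions; the sources used here give no genome build. Sequencing depth is therefore unknown. Gene names come from the table; 0 identifiers matched the RefSeq gene table.

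Tests used log2(TPM + 1), a scale on which low genes change less, for the 17702 genes that reached 1 TPM in 3 or more libraries, with limma 3.58.1 (trend and robust, statmod 1.5.0, R 4.3.3) and Benjamini-Hochberg adjustment over all of them, called at an adjusted p under 0.05. The fit was tested on simulated data. The members and lists were chosen with earlier results of these data known. Lists were patterns in the descriptions. Named from each list were up to 5 called genes per direction with the smallest p, then 3 neighbours on each side and the 5 genes of highest mean r. Other named genes were chosen after their values were seen. The alternatives were another pseudocount, expression minimum, scaling or call rule, a replicate block, no low-quality models, and each library left out with the tested genes kept. The minimum in at least 4 libraries, median centring and the fit without low-quality models were chosen after the data were seen.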

Additional observations from a re-analysis of the deposited data

How the results depend on the processing

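The mean difference of the 3 CBF genes was 4.38 to 4.88 on the log2(TPM + 1) scale with single libraries left out, and 5.66 with 0.1 added in place of 1. A change of at least 2-fold left 2018 changed genes of all, 0 upstream and 3 clock genes. Single libraries left out gave 2125 (without wild type replicate 1) to 3806 changed genes of all, 5 to 6 other CBF and DREB, 0 to 1 upstream, 17 to 26 cold and dehydration, 4 to 5 clock and 2 to 5 gibberellin genes. The gibberellin count was 2 without mutant replicate 2 or wild type replicate 1. A minimum of 5 TPM left 3 called CBF and DREB genes, and 1 TPM in at least 4 libraries left 2, since fewer were tested. Upstream calls were 2 with no minimum, quantile normalization or median centring. With the replicate number as a block they were also 2, and gibberellin calls were 2. The replicate numbers were not taken to pair samples: same-numbered libraries deviated from their group means with r of -0.05, -0.07 and 0.11 over genes. Values near 0 TPM rest on few reads of unknown number.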

Other observations

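Other AP2/ERF genes changed in both directions. In a list of genes described as ethylene-responsive or AP2 factors, drawn up after the values were seen, 15 of 74 tested members rose and 12 fell by limma, 36.5% called (20.3% rose) against 19.2% of all tested genes (8.71% rose), with a median difference of -0.05 on the log2(TPM + 1) scale. The count is not support by itself, because 5 of the genes that rose reached the expression minimum through the mutant libraries alone and 2 of those that fell through the wild type libraries alone. The difference between this list and the CBF and DREB genes was not tested.

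Enzymes of sugars, proline and membrane lipids that build up or change in cold-acclimated plants were called at a share near that of all genes. Of 35 tested members of a list drawn up after the values were seen, 4 rose and 2 fell by limma, 17.1% called against 19.2% of all tested genes, and 1 of the 2 that fell reached the expression minimum through wild type alone. A trehalose 6-phosphate phosphatase gene (Solyc04g072920.3) held 21.87, 27.75 and 22.98 TPM across the mutant libraries, against 11.25, 6.78 and 7.47 TPM across wild type libraries (limma adjusted p = 0.00227). The gene described as beta-amylase 1 (Solyc09g091030.3), a starch-degrading enzyme, fell from 55.8 ± 7.69 to 28.7 ± 2.26 TPM (mean ± SD, n = 3, limma adjusted p = 0.00419).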
